A study of Mus musculus with 8 samples.

Results

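NRF2, encoded by Nfe2l2, its inhibitor Keap1 and 8 antioxidant enzyme genes (Nqo1, Hmox1, Txnrd1, Srxn1, Gclc, Gclm, Gsr and Txn1) were followed in mouse leukaemia cells grown in control medium or in osteoclast-conditioned medium. They were taken as the 10 rows, of 21859 Ensembl gene IDs in the count table, whose IDs carry these symbols in GENCODE M21. In osteoclast-conditioned medium 3 of the 10 rose (Hmox1 by 1.60-fold, Nfe2l2 and Gsr by about 1.1-fold each), 1 fell (Txn1, to 0.847 of its control level), 4 were tested and not called (Keap1, Txnrd1, Gclc and Gclm), and 2 had too few counts to test (Nqo1 and Srxn1). Of all 10729 genes tested, 30.5% were called, 15.7% higher and 14.8% lower, so the 4 calls among the 8 tested members are read against that background. Scaling by total counts moved the calls over all genes to 1383 higher and 2012 lower, from 1689 and 1584, and Gsr was then not called.

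NRF2 is a basic leucine zipper transcription factor that, in resting cells, is bound by KEAP1 and handed to a CUL3 ubiquitin ligase for degradation. Oxidants and electrophiles modify cysteines of KEAP1, NRF2 then accumulates, pairs with a small MAF protein and binds antioxidant response elements near genes of glutathione synthesis, thioredoxin reduction, quinone reduction and haem breakdown. Because this control acts largely on the protein, the Nfe2l2 and Keap1 transcripts do not measure NRF2 activity, which was not assayed here.

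The cells were PER-M60, a single mouse line that the labels call leukaemia cells. The 4 control cultures were grown in control media and the 4 test cultures in osteoclast-conditioned media. Osteoclasts are bone-resorbing cells, and conditioned medium is medium taken from a culture of the named cells. The labels give no dilution, exposure time, genotype or medium composition, and do not say whether replicates were separate cultures started on different days, so p-values measure the spread between these samples, which may be partly technical. All results below come from 1 cell line.

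Library totals ran from 15391754 to 21637966 counts and did not differ between media beyond their spread (p = 0.857, exact permutation, two-sided). In normalised CPM, counts scaled by TMM and library size to a common total, 3 counts equalled 0.138 to 0.194; this is the limit that a count of 0 allows and covers counting error only. Chi-square per degree of freedom between libraries was 1.38 to 5.26 within a medium and 7.84 to 13.1 between media, so no library was treated as a repeat of another. All 8 B-lineage markers chosen for the check were detected, with summed levels of 4253 to 4279 CPM in control medium and 4501 to 4538 CPM in osteoclast-conditioned medium. Of these markers 5 rose and 1 fell, beside 15.7% and 14.8% of the genes in the test. A change in the share of cells of one kind and a change in RNA per cell cannot be told apart in bulk libraries. Osteoclast markers summed to 35.8 to 37.2 CPM and 34.4 to 37.9 CPM in the respective media, with Dcstamp and Ocstamp at 0 in all libraries. Acp5, the most abundant osteoclast marker, was at 22.9 ± 1.51 CPM in control and 24.4 ± 1.42 CPM in conditioned medium. It was not called (log2 fold change 0.08, edgeR adjusted p = 0.332). Of the 10 osteoclast markers 2 were tested, and Itgb3 (-0.25 log2) was called lower. That call was lost with DESeq2 (adjusted p = 0.0514), against a 1.2-fold change, and without control replicate 1 (0.0744) or control replicate 3 (0.0879).

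Antioxidant response elements were looked for in the promoter windows of the members, from 250 bases before to 50 after each annotated start (RefSeq, GRCm38.p6). Windows were found for 7 of the 10 genes, all but Hmox1, Gclc and Gsr. The core TGACNNNGC, searched on both strands, occurred in 4 of the 9 windows of these 7 genes (1 each for Nfe2l2, Srxn1 and Gclm, and 1 of 3 for Txnrd1), and in 12.4% of all 32851 windows. No match was found in the windows of Keap1, Nqo1 and Txn1. The matches are shown because they are the letters that NRF2 and its partners read, each with 10 bases on either side and the match in capitals.
Nfe2l2: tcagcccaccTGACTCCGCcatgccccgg
Txnrd1: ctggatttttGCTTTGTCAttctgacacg
Gclm: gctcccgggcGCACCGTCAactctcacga
Srxn1: gcagtgggcaGCTAGGTCAgagtgagaca
The Nfe2l2 match begins 240 bases before the start (chr2:75704885-75704913, minus strand), that of Txnrd1 92 bases before a start that lies inside the annotated gene (chr10:82859104-82859132, plus strand) and that of Gclm 134 bases before (chr3:122245413-122245441, plus strand). The Srxn1 match begins 28 bases after the start (chr2:152105542-152105570, plus strand). The matches of Txnrd1, Gclm and Srxn1 are in the reverse orientation. Coordinates in brackets cover the whole printed stretch with its flanking bases, while the distances are those of the match. A match of these letters is a description of the sequence and not evidence that the site is bound.

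Nfe2l2 (ENSMUSG00000015839; chromosome 2, 75675513 to 75704641 in GRCm38, minus strand) was slightly more abundant in osteoclast-conditioned medium. Its levels in control replicates 1 to 4 were 88.9, 85.7, 87.7 and 87.1 normalised CPM, and in osteoclast-conditioned replicates 1 to 4 they were 99.1, 95.4, 96.2 and 92.1. Every culture in conditioned medium lay above every control culture. The log2 fold change was 0.13 (SE 0.03, 95% interval 0.07 to 0.20, edgeR quasi-likelihood test, adjusted p = 0.00266).

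Keap1 (ENSMUSG00000003308; chromosome 9, 21229730 to 21239361, minus strand), the adaptor that presents NRF2 to its ubiquitin ligase, was at nearly the same level in 7 of the 8 cultures. Control replicates held 82.3, 82.0, 82.5 and 82.7 normalised CPM, and conditioned replicates 79.6, 82.7, 82.5 and 82.0. The groups overlapped, with conditioned replicate 1 the lowest. The log2 fold change was -0.01 (SE 0.03, edgeR adjusted p = 0.818), and its 95% interval of -0.08 to 0.06 leaves out changes as large as that estimated for Nfe2l2. An antisense gene, Gm16754, covers 10.9% of the Keap1 exon bases, and whether reads were counted by strand is not given in the sources used here, so a part of this count may belong to it.

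The ratio of Nfe2l2 to Keap1 counts within a library does not depend on how libraries are scaled. It was 1.08, 1.05, 1.06 and 1.05 in control replicates 1 to 4 and 1.25, 1.15, 1.17 and 1.12 in conditioned replicates 1 to 4. All 4 conditioned ratios were above all 4 control ratios, by 0.14 on the log2 scale (two-sided exact permutation test, p = 0.0286, the smallest that 4 against 4 samples can give; 0.0429 after adjustment over the 3 ratios examined).

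**Figure D1:**
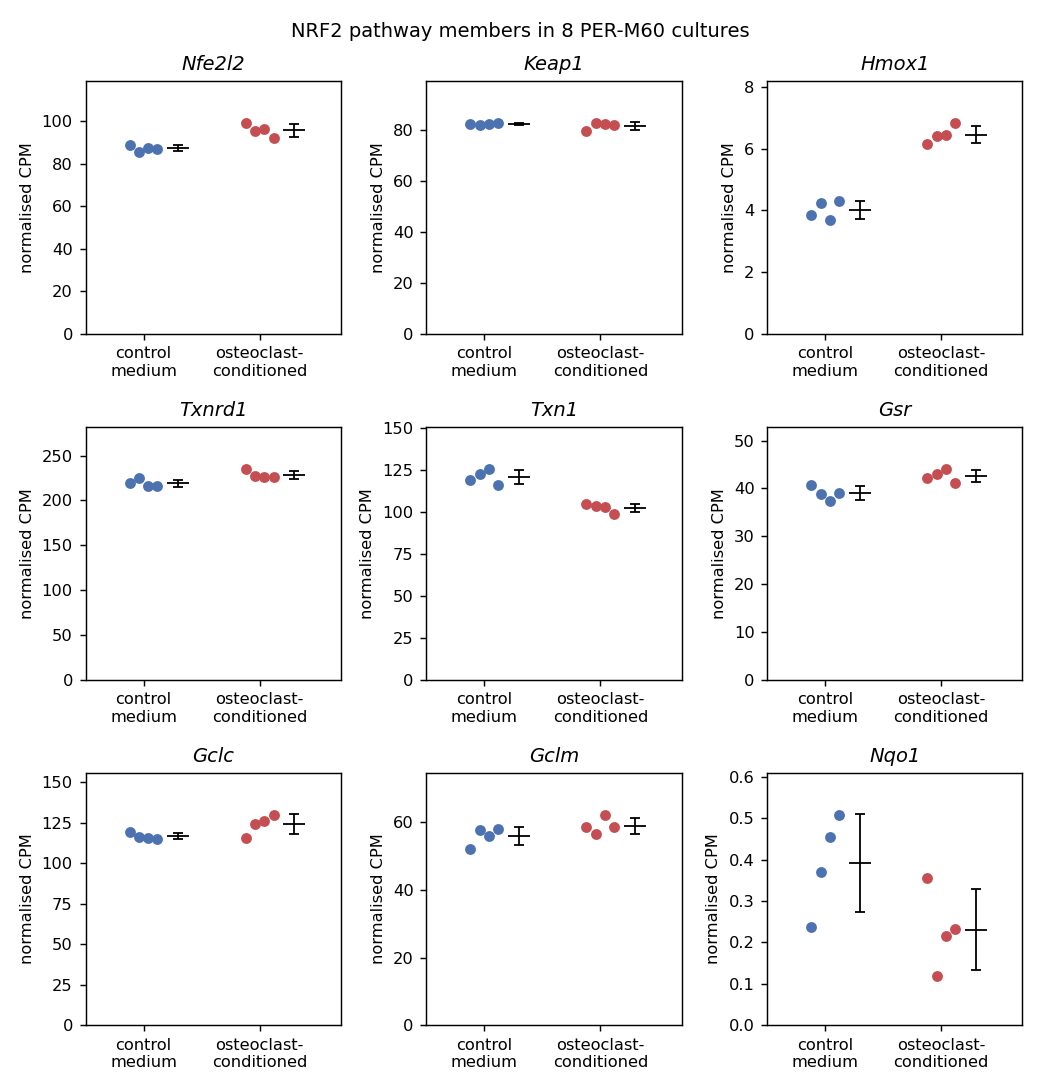
Normalised CPM (y axis, starting at 0) of the 9 members with any counts in 4 control cultures (blue, replicates 1 to 4 from left to right) and 4 cultures in osteoclast-conditioned medium (red); the black bar is the mean with its SD. Hmox1 goes from about 4.02 to 6.46 CPM without overlap, Txn1 falls without overlap, Keap1 stays near 82 CPM in all but conditioned replicate 1, and Nqo1 stays at or below 0.508 CPM.

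Hmox1 (ENSMUSG00000005413; chromosome 8, 75093621 to 75100589, plus strand), which encodes haem oxygenase 1, the inducible enzyme that opens haem to biliverdin, carbon monoxide and iron, had the largest change among the 8 members that could be tested. Control replicates 1 to 4 held 3.85, 4.24, 3.69 and 4.29 normalised CPM, and conditioned replicates 6.16, 6.41, 6.44 and 6.83. The 2 groups were well apart: the lowest conditioned culture had 6.16 CPM and the highest control culture 4.29. Mean Hmox1 was 4.02 ± 0.295 CPM in control and 6.46 ± 0.277 CPM in conditioned medium (SD, 4 cultures each). On the log2 scale the rise was 0.67 (SE 0.11, 95% interval 0.45 to 0.90, edgeR adjusted p = 1.61e-05). Hmox1 was the only member called in a test against a change of 1.2-fold (edgeR glmTreat, adjusted p = 0.00485), in which 2.12% of all tested genes were called.

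The Hmox1 value rests on few reads, 57 to 92 counts per control library and 107 to 121 per conditioned library. Haem oxygenase 1 is also abundant in macrophages, so macrophage markers are given beside it. Of 8 such markers, C1qa and C1qb were at 0 counts in all libraries, Csf1r had 0 to 6 counts, 3 were tested and 1 was called, a share near the 30.5% of all tested genes. That one, Lyz2, went from 4.46 ± 0.406 to 5.91 ± 0.865 CPM (SD, n = 4 each; log2 fold change 0.40, edgeR adjusted p = 0.0119), a value uncertain because its close paralogue Lyz1 shares 95.8% of the bases over 1264 bases. The Lyz2 call was lost without conditioned replicate 2 (log2 fold change 0.32, adjusted p = 0.0639). Mrc1, the most abundant of the macrophage markers, was at 14.3 ± 0.413 CPM in control and 14.7 ± 0.993 CPM in conditioned medium. It was not called (log2 fold change 0.04, edgeR adjusted p = 0.707). Cd68, at 2.11 and 2.13 CPM in the respective media, was not called either (0.02, edgeR adjusted p = 0.946). The 8 markers summed to 20.8 to 22.2 CPM in control medium and 21.5 to 25.2 CPM in conditioned medium, and their part in the Hmox1 result was not tested.

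Of the thioredoxin pair, Txn1 fell and Txnrd1 was not called. Thioredoxin, encoded by Txn1 (ENSMUSG00000028367; chromosome 4, 57943373 to 57956411, minus strand), is a small protein that reduces disulfides in other proteins, and thioredoxin reductase 1, a selenoprotein encoded by Txnrd1 (ENSMUSG00000020250; chromosome 10, 82833951 to 82897712, plus strand), recharges it with NADPH. Txn1 was at 119, 123, 126 and 116 normalised CPM in control replicates 1 to 4 and at 105, 103, 103 and 98.5 in conditioned replicates. All conditioned cultures were below all controls, and Txn1 was the only member called lower (log2 fold change -0.24, SE 0.03, 95% interval -0.31 to -0.17, edgeR adjusted p = 1.46e-06). A processed pseudogene, Txn-ps1, shares 95.8% of bases over 309 bases with the Txn1 transcript, so reads from that stretch may have been lost or shared in counting.

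Txnrd1 was at 219, 225, 216 and 216 normalised CPM in control medium and at 235, 227, 226 and 227 in conditioned medium. The groups did not overlap, but the gap between the highest control and the lowest conditioned culture was small and the call was not reached (log2 fold change 0.06, SE 0.03, 95% interval 0.01 to 0.12, edgeR adjusted p = 0.0851). It was reached when control replicate 2, the highest control, was left out (adjusted p = 0.0289). The Txnrd1 to Txn1 count ratio was 1.84, 1.83, 1.72 and 1.86 in control replicates and 2.25, 2.20, 2.19 and 2.30 in conditioned replicates. That is a shift of 0.30 on the log2 scale with no overlap (two-sided exact permutation test, p = 0.0286, adjusted over the 3 ratios 0.0429).

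**Figure D2:**
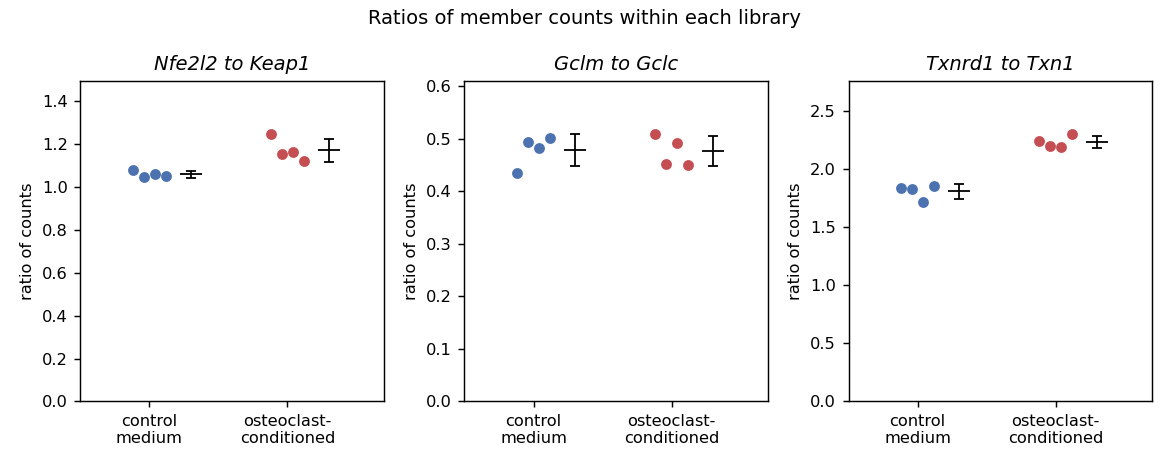
Ratio of the counts of 2 members within each library (y axis, starting at 0) in control (blue) and osteoclast-conditioned (red) cultures, with mean and SD in black. The Nfe2l2 to Keap1 and Txnrd1 to Txn1 ratios are higher in every conditioned culture than in every control, and the Gclm to Gclc ratios overlap.

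Glutamate-cysteine ligase makes the first and rate-limiting step of glutathione synthesis and is built from a catalytic subunit, Gclc (ENSMUSG00000032350; chromosome 9, 77754535 to 77794485, plus strand), and a modifier subunit, Gclm (ENSMUSG00000028124; chromosome 3, 122245557 to 122270732, plus strand). Gclc was at 119, 117, 116 and 115 normalised CPM in control replicates and at 115, 125, 126 and 130 in conditioned replicates. Conditioned replicates 2 to 4 were above all controls, while conditioned replicate 1 lay at the bottom of the control range. The log2 fold change of 0.09 (SE 0.03, 95% interval 0.02 to 0.16) missed the threshold (edgeR adjusted p = 0.0529). Without conditioned replicate 1 it was 0.12 and called (adjusted p = 0.00849), and it was called under 4 of 18 alternatives in all.

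Gclm was at 52.0, 57.7, 56.0 and 57.9 normalised CPM in control medium and at 58.7, 56.4, 62.2 and 58.6 in conditioned medium. The groups overlapped, and the log2 fold change of 0.08 (SE 0.04, 95% interval -0.01 to 0.16, edgeR adjusted p = 0.174) was not called under any alternative. The Gclm to Gclc count ratio was 0.479 ± 0.0302 in control and 0.476 ± 0.0288 in conditioned medium (SD, n = 4 each; two-sided exact permutation test, p = 0.943), with the groups overlapping.

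Gsr (ENSMUSG00000031584; chromosome 8, 33652523 to 33698163, plus strand), glutathione reductase, returns oxidised glutathione to its reduced form with NADPH. It was at 40.8, 38.8, 37.4 and 39.1 normalised CPM in control replicates and at 42.2, 43.0, 44.1 and 41.1 in conditioned replicates. The groups did not overlap, although control replicate 1 and conditioned replicate 4 were close. Its log2 fold change was 0.13 (SE 0.04, 95% interval 0.04 to 0.22, edgeR adjusted p = 0.0306). This call was lost under 6 of 18 alternatives, among them DESeq2 (adjusted p = 0.0833), scaling by total counts (0.0728) and leaving out control replicate 3 (0.0801), conditioned replicate 2 (0.0645) or conditioned replicate 3 (0.109).

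**Figure D3:**
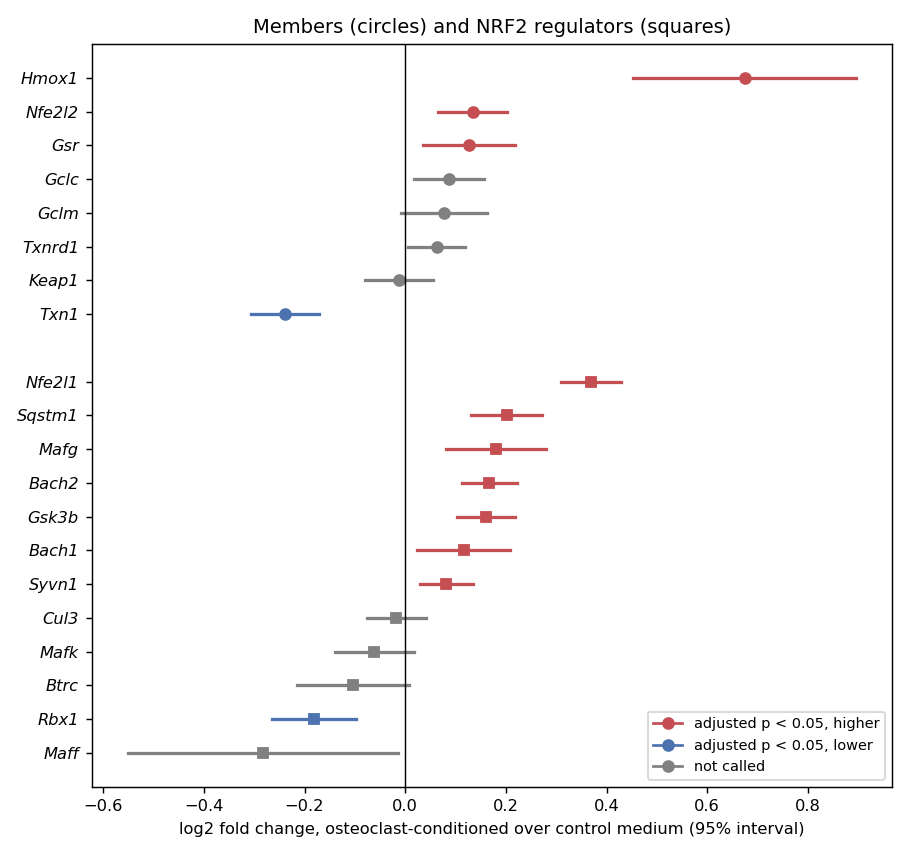
Log2 fold change (x axis, osteoclast-conditioned over control medium) with its 95% interval for the 8 tested members (circles) and 12 regulators of NRF2 (squares), red where called higher, blue where called lower and grey where not called. Hmox1 stands to the right of all others at 0.67, Txn1 to the left of the other members at -0.24, and the remaining 6 members lie between -0.01 and 0.13.

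Nqo1 and Srxn1 gave no measure of a difference. Nqo1 (ENSMUSG00000003849; chromosome 8, 107388225 to 107403206, minus strand), the quinone reductase often used as a readout of NRF2 activity, had 4, 8, 7 and 9 counts in control replicates and 7, 2, 4 and 4 in conditioned replicates. The sums were 28 and 17 counts, and the groups overlapped. Nqo1 fell below the filter on low counts, and when it was tested with no filter the log2 fold change was -0.71 with an SE of 0.48 (edgeR adjusted p = 0.334), so a difference was not detectable at this depth. Srxn1 (ENSMUSG00000032802; chromosome 2, 152105516 to 152111376, plus strand), sulfiredoxin, which repairs overoxidised peroxiredoxins, had 0 counts in all 8 libraries. That is below 0.138 to 0.194 CPM if reads of the gene were counted as for other genes. A 0 in this table need not mean that a transcript was missing: G6pdx, a glucose-6-phosphate dehydrogenase gene used by nearly every cell, was also at 0. G6pdx lies wholly inside the span of Ikbkg and shares 13.6% of its exon bases with it, whereas Srxn1 overlaps no annotated gene. Slc7a11, at 0 too, lies inside no other listed gene. The cause of these 0 counts was not tested.

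Levels between genes were compared as normalised CPM per kilobase of annotated exon, averaged over the 8 libraries. Txn1 was highest at 106 CPM per kb, a level higher than that of 96.7% of tested genes. Gclc (32.0) and Txnrd1 (31.6) came next and overlapped across libraries, followed without overlap by Nfe2l2 (24.1), Keap1 (17.5), Gsr (14.8), Gclm (9.13), Hmox1 (2.99) and Nqo1 (0.200). Hmox1, with the largest fold change of the 8 tested members, therefore sat at the 27.5 percentile of tested genes, and Txn1, the member that fell, at the top of this order. Exon length was taken from GENCODE M21, which may not be the annotation used for counting.

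Of the 8 tested members, 6 had a positive log2 fold change, and the median was 0.08 against -0.01 over all tested genes. The groups did not overlap in 5 of them, 4 higher (Nfe2l2, Hmox1, Txnrd1 and Gsr) and 1 lower (Txn1). Among all tested genes the groups did not overlap in 28.2%, 15.2% higher and 12.9% lower. Across the 8 cultures the genes whose log2 CPM followed Nfe2l2 most closely, out of 8205 with at least 10 CPM, were Slc35e1 (Pearson r = 0.983), Eif4b (0.982) and Klf9 (0.979). These r describe 8 points that share the split between media and carry no test.

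Genes that regulate NRF2 protein or compete for its sites were listed as 12 regulators, all of them tested. Of these, 7 were called higher and 1 lower (edgeR adjusted p under 0.05), against 15.7% and 14.8% over all genes in the test, and the median log2 fold change was 0.10. The number called higher was 5 when libraries were scaled by total counts and 1 against a 1.2-fold change. The number called lower was 2 without control replicate 4 or without conditioned replicate 1. Nfe2l1, encoding the related factor NRF1, which drives proteasome genes, rose most, from 132 ± 2.21 to 171 ± 3.06 normalised CPM (log2 fold change 0.37, SE 0.03, edgeR adjusted p = 3.39e-11). Sqstm1, encoding p62, which binds KEAP1 and brings it to autophagy, went from 95.5 ± 2.28 to 110 ± 4.54 (0.20, adjusted p = 3.63e-05), but 17.3% of its exon bases are shared with Mrnip. Mafg, encoding a small MAF partner of NRF2, rose by 0.18 (adjusted p = 0.00565). The other small MAF genes of the list were not called, Maff at -0.28 (edgeR adjusted p = 0.105) and Mafk at -0.06 (0.238).

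Bach2 and Bach1 encode repressors that occupy the same elements in competition with NRF2. BACH2 is also a regulator of B-cell development. Bach2 rose to 260 ± 2.14 CPM from 232 ± 5.91 CPM (log2 fold change 0.17, edgeR adjusted p = 1.77e-05). Its transcript has stretches near-identical to 32 other annotated genes, the longest in the antisense Bach2os, and 5.40% of its exon bases are shared with other annotated genes, which makes its count uncertain. Bach1, a haem-sensing repressor of Hmox1, had a change of 0.12 with overlapping groups and an adjusted p of 0.049 (edgeR), and was not called under 12 of 18 alternatives. Gsk3b (0.16), encoding a kinase that marks NRF2 for a second degradation route, and Syvn1 (0.08), encoding the ligase HRD1, were also called higher. Syvn1 was not called when libraries were scaled by total counts (adjusted p = 0.0697) or without conditioned replicate 3 (0.0582). The RING subunit of the ligase that degrades NRF2, Rbx1, fell by 0.18 (adjusted p = 0.000973), while its scaffold Cul3 was at 255 ± 7.49 and 252 ± 6.49 CPM (log2 fold change -0.02, 95% interval -0.08 to 0.04, adjusted p = 0.685). A processed pseudogene, Rbx1-ps, shares 99.1% of bases with Rbx1 over 327 bases.

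Of 22 other genes known as NRF2 targets, 16 were tested, 4 were called higher, 3 lower and 9 not called, with a median log2 fold change of 0.00. The shares over all tested genes were 15.7% higher and 14.8% lower. The export pump gene Abcc4 rose by 0.30 (96.7 ± 2.56 to 119 ± 2.33 normalised CPM, edgeR adjusted p = 1.59e-08). The ferritin genes Fth1 (0.22) and Ftl1 (0.14), whose products store iron, rose with adjusted p of 3.1e-07 and 0.000223 (edgeR). Ftl1 has 13 near-identical annotated copies, which makes its count uncertain. The peroxiredoxin gene Prdx1 fell from 273 ± 12.5 to 231 ± 5.9 CPM (log2 fold change -0.24, adjusted p = 5.85e-07), and 2 near-identical copies limit its count too. Pgd (-0.19), an NADPH-yielding enzyme of the pentose phosphate pathway, and Taldo1 (-0.14), of its non-oxidative branch, were also called lower, the latter with overlapping groups. In that list Slc7a11, the cystine carrier, was at 0 counts in all libraries, and Me1 had 0 to 3.

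**Figure D4:**
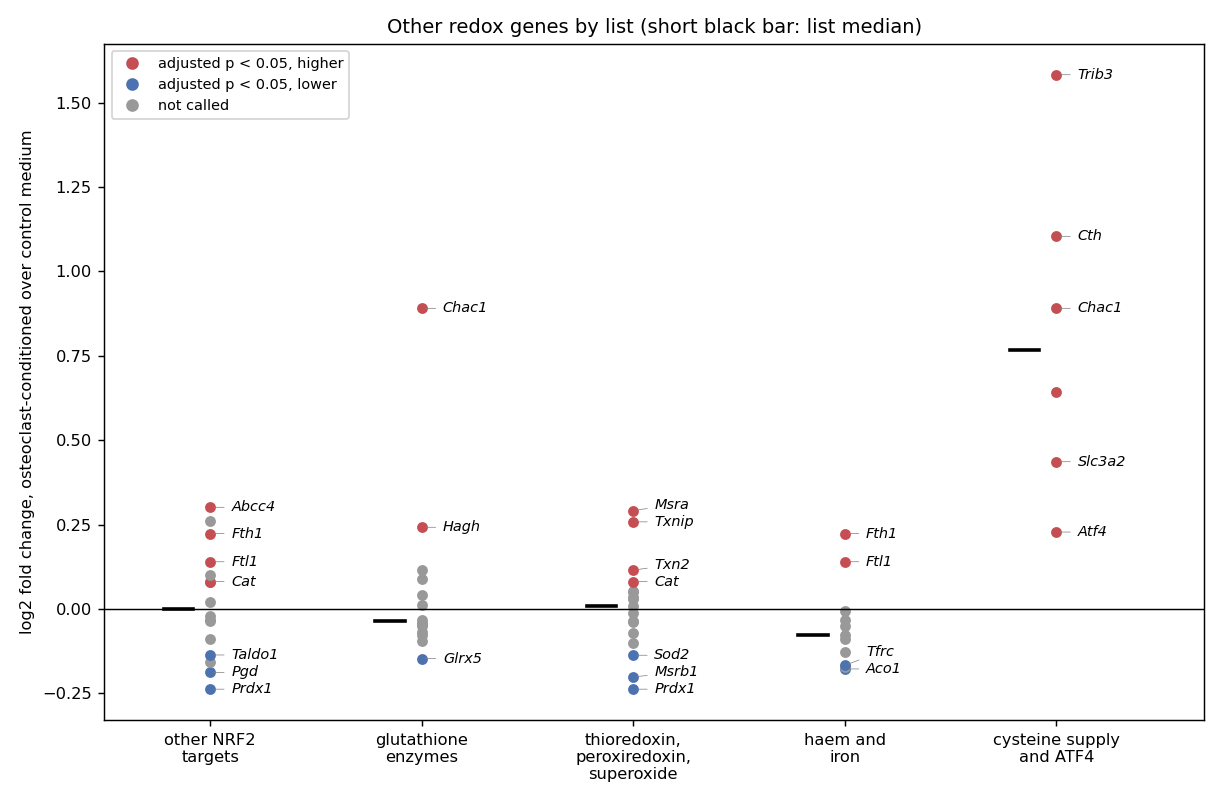
Log2 fold change (y axis, osteoclast-conditioned over control medium) of each tested gene in 5 lists of redox and stress genes (x axis), red where called higher, blue where called lower and grey where not called; short black bars are list medians. The 6 tested genes of the cysteine supply and ATF4 list lie at 0.23 or above, and the other 4 lists have medians between -0.08 and 0.01 with calls on both sides of 0.

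Of 12 haem and iron genes 11 were tested, 2 were called higher (the ferritins) and 2 lower, and the median log2 fold change was -0.08. These counts lie near the shares over all tested genes, 15.7% higher and 14.8% lower. Tfrc, the transferrin receptor that takes up iron, fell from 327 ± 8.34 to 291 ± 4.69 normalised CPM (-0.17, edgeR adjusted p = 1.52e-05). Aco1, the iron regulatory protein 1, was called lower as well (-0.18, edgeR adjusted p = 0.00704). Alas1, the first enzyme of haem synthesis, and Blvra, which reduces the biliverdin made by haem oxygenase, were not called.

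In the list of thioredoxin, peroxiredoxin and superoxide enzymes, all 17 genes were tested, 4 were called higher and 3 lower, against 15.7% and 14.8% of all tested genes, and the median log2 fold change was 0.01. Without control replicate 4 the number called lower was 5. Msra, a methionine sulfoxide reductase, rose by 0.29 (edgeR adjusted p = 0.000143), and Txnip, which binds and blocks thioredoxin, rose by 0.26 (151 ± 2.76 to 180 ± 2.36 CPM, adjusted p = 2.82e-08). Txn2, the mitochondrial thioredoxin, rose by 0.11 (edgeR adjusted p = 0.00384), opposite to the cytosolic Txn1. An antisense gene shares part of the Txnip exons, 19.4% of whose bases lie in other annotated genes. Besides Prdx1, Msrb1 (-0.20) and the mitochondrial superoxide dismutase Sod2 (-0.14) were called lower. The Sod2 transcript has stretches near-identical to 14 other annotated genes, which makes its count uncertain. The Msrb1 call was lost without control replicate 2 (-0.15, edgeR adjusted p = 0.0645).

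Of 18 further glutathione enzymes 14 were tested, 2 were called higher, 1 lower and 11 not called, with a median of -0.04, where 30.5% of all tested genes were called. The number called lower was 2 with total counts, with no filter, and without control replicate 3 or conditioned replicate 3. Chac1, which degrades glutathione and is an ATF4 target, rose from 7.32 ± 0.602 to 13.5 ± 0.769 normalised CPM (0.89, SE 0.08, edgeR adjusted p = 1.25e-09). Hagh (0.24), a glyoxalase, was called higher and the mitochondrial glutaredoxin Glrx5 (-0.15) lower. Hagh was not called with DESeq2 (adjusted p = 0.0714), without control replicate 3 (0.0648) or without conditioned replicate 2 (0.062). The synthetase Gss, which completes glutathione, had only 20 to 36 counts per library and was not called (edgeR adjusted p = 0.782).

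The cysteine supply and ATF4 list, which shares Chac1 with the one above, moved in 1 direction: of 8 genes 6 were tested and all 6 were called higher, against 15.7% of all tested genes, with a median of 0.77. This list, like the others, was written with earlier results of these data known, so its count is a description and not independent evidence. Trib3 (1.58), a pseudokinase induced by ATF4, and Cth (1.10), the last enzyme of the route from methionine to cysteine, had the largest changes. Whether these changes differ from that of Hmox1 was not tested. Over the 6 pathway lists together, which overlap in some genes, 70 of 82 distinct genes were tested, 21 called higher and 9 lower, with a median log2 fold change of -0.01. The shares over all tested genes were 15.7% higher and 14.8% lower, and their median was also -0.01.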

How the data were processed

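RNA sequencing counts of 8 PER-M60 cultures, 4 per medium, were analysed. The authors deposited 1 table of unnormalised counts, with Ensembl IDs naming the genes. Per the submitters' processing notes, STAR 2.7.5a, featureCounts 2.0.1 and the build mm10 were used; annotation, strand and handling of molecular barcodes are not given in the sources used here. Per the labels' protocols, the library kit was SureSelect HS2. All columns were matched to samples by header number, leaving 0 unmatched.

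Symbols, positions and exon lengths came from GENCODE M21 (GRCm38), with 21817 of 21859 IDs matched. Genes passing filterByExpr (10729) entered the test in edgeR 4.0.16 under R 4.3.3 (TMM, robust glmQLFit, glmQLFTest, Benjamini-Hochberg over all tested genes, threshold 0.05). SEs are the absolute log2 fold change over the square root of F. Single ratios and totals were compared by two-sided exact permutation (scipy 1.17.1). Near-identical copies were transcripts of other genes with at least 95% identity over at least 100 bases (BLAST+ 2.17.0). The fit was tested on simulated counts. Alternatives were other scalings, filters, tests (DESeq2 1.42.0, limma-voom 3.58.1, glmTreat), no robust estimation, the replicate block and leaving out each sample.

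The members and lists were chosen with earlier results of these data known. Named genes were all members and, per list, up to 3 called genes with the largest change on each side; Bach1, Bach2, Gsk3b, Syvn1, Cul3, Maff, Mafk, Alas1, Blvra, Gss, Me1, Slc7a11, G6pdx and marker genes were named after their values were seen. The labels do not say whether shared replicate numbers pair the cultures, and they were not taken to do so (correlations in the closing section).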

Additional observations from a re-analysis of the deposited data

Results flagged for a closer look

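The highest or lowest of 4 cultures in a medium was set against the remaining 3 by Dixon's ratio, the gap to its neighbour divided by the range of the group. Of 110 groups examined (members and other named genes with any counts, ratios and totals), 9 passed the 95% critical value, and about 5.5 would do so by chance. Among the members this concerned Txnrd1 in conditioned replicate 1, at 235.2 normalised CPM against 225.9 to 227.2 in the other conditioned cultures (ratio 0.861). Conditioned replicate 1 was also highest for Abcc4, at 122.5 against 117.6 to 118.1, and for Taldo1, at 108.0 against 98.0 to 99.7. In conditioned replicate 4, Aco1 was lowest at 29.99 against 33.9 to 34.4 and Mafg highest at 68.03 against 59.8 to 60.2. In control replicate 2, Taldo1 was highest at 119.6 against 107.4 to 108.7 and Txnip at 154.9 against 149.0 to 149.6. In control replicate 4, Gsk3b was lowest at 167.2 against 174.9 to 176.1. In control replicate 1, Blvra was lowest at 17.94 against 19.1 to 19.3.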

How the results depend on the processing

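Of 18 alternatives, each of which kept the sign of all called members, the test against a 1.2-fold change called 227 genes (161 higher, 66 lower), 1 member (Hmox1; 0 lower) and 6 genes of the pathway lists, since it asks for larger changes. In it the log2 fold changes of Nfe2l2 (0.13), Gsr (0.13) and Txn1 (-0.24) were not called. Gsr was also not called with total counts (0.10) or DESeq2 (0.13), and Gclc was called with no filter (0.0883) and where genes averaging under 50 counts were dropped (0.08853); the cause was not tested. Leaving out 1 sample gave 2635 to 3578 called genes (1395 to 1846 higher, 1220 to 1732 lower), 3 to 5 called members (2 to 4 higher, 1 lower) and 28 to 34 called list genes. Those fits gave log2 fold changes of 0.12 to 0.15 for Nfe2l2, 0.64 to 0.71 for Hmox1, -0.25 to -0.22 for Txn1, 0.11 to 0.15 for Gsr, 0.06519 to 0.1226 for Gclc, 0.05 to 0.10 for Gclm, 0.05085 to 0.0762 for Txnrd1, and -0.01692 to 0.003345 for Keap1, which was positive only without conditioned replicate 1. The log2 ratio difference was 0.11 to 0.16 for Nfe2l2 to Keap1 and 0.28 to 0.32 for Txnrd1 to Txn1, with exact p = 0.0571 throughout, the smallest that 3 against 4 allow, and -0.05308 to 0.01763 for Gclm to Gclc, which was positive without control replicate 2 (0.008587), control replicate 4 (0.01591), conditioned replicate 2 (0.01571) or conditioned replicate 4 (0.01763). The difference in totals, 362559.5 counts, ran from -444562.8 to 1637507.9 and fell below 0 on leaving out control replicate 1 (-18735.1), control replicate 3 (-444562.8) or conditioned replicate 1 (-203623.4).

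Same-numbered libraries deviated together at r = 0.0372 on average (4 pairs, -0.0507 to 0.143), and libraries of unlike number at -0.0127, so the numbers were not taken to pair the samples. With the replicate block 3446 genes were called and the same number of members, 4. With pairing by number, an exact sign-flip test of the log2 ratio differences, 0.14 for Nfe2l2 to Keap1 and 0.30 for Txnrd1 to Txn1, gave p = 0.125, the smallest that 4 pairs allow. Depth limits what can be said of Nqo1, and the cause of the 0 counts of Srxn1 was not tested.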
